A study of Homo sapiens with 4 samples.

Results

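The genes described here encode the machinery that brings nuclear-encoded proteins into mitochondria, folds them there and degrades those that fail. The 44 genes were listed by symbol and function, in a list drawn up with earlier results of these data known, and matched to the 58736 features given for each library, where all 44 were found. They comprise 8 genes of the outer membrane translocase, 6 small TIM chaperones, 2 genes of the intermembrane space disulfide relay, 2 of the carrier translocase TIM22, 5 of the presequence translocase TIM23, 7 of the import motor, 2 of the matrix processing peptidase, 4 matrix chaperones, and 8 proteases with their membrane scaffold.

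RNA was sequenced from HEK293A, an epithelial line established from human embryonic kidney, in a study of gene regulation by the flap endonuclease FEN1 guided by hairpin DNA probes. Every well, control wells included, received 1 µg of FEN1 plasmid and then, after 48 h, 500 pmol of DNA probes, and total RNA was taken after 72 h. The probes were a negative control in 2 libraries (replicates 1 and 3) and NT1_hp2 in the other 2 (replicates 2 and 3), and values are given below in that order. The labels name neither the control sequence nor the target of NT1_hp2, and they do not say whether replicates were separate cultures, so the spread behind the p-values may be technical. Bulk RNA averages over all cells of a well, so fewer responding cells and less mRNA per cell cannot be told apart.

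Most mitochondrial proteins are made in the cytosol and enter through the TOM complex of the outer membrane, whose pore is TOMM40 and whose receptors include TOMM20, TOMM22 and TOMM70. Small TIM chaperones carry hydrophobic precursors across the intermembrane space, TIM22 inserts carrier proteins into the inner membrane, and TIM23 passes proteins with a cleavable presequence to the matrix, where an HSPA9-driven motor pulls them in and the processing peptidase removes the presequence. HSPD1 and HSPE1 form the folding chamber of the matrix, and LONP1, CLPP with CLPX, YME1L1 and the AFG3L2 and SPG7 proteases remove damaged or surplus proteins.

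The libraries held 12506203 to 14908687 reads recovered from the deposited values, and for a transcript of 1 kilobase a count of 3 reads amounted to 0.208 to 0.239 FPKM (reads scaled to transcript length and library size), a floor that covers counting error only. Reads of mitochondrially encoded genes took 6.06% and 5.92% of the negative control libraries and 4.33% and 4.29% of the NT1_hp2 libraries, without overlap between the groups, and the part of this shift in the results below was not tested. Of 13 kidney epithelial and HEK293 markers, 7 had a mean of at least 1 FPKM and the 13 together summed to 312 to 368 FPKM per library, while EPCAM, CDH1, PAX2, PAX8, CDH6 and NEFM did not pass the expression filter. Markers of mature kidney (0 of 9) and endothelium (0 of 4) had no member at that level. Fibroblast markers had 3 of 6, COL1A1 the highest at a mean of 8.12 FPKM, and summed to 13.2 to 14.1 FPKM per library.

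Cells given NT1_hp2 held less mRNA of several import channel and carrier genes, and more mRNA of parts of the matrix import motor, than the negative control. TOMM40, the outer membrane pore, was at 0.603 of its control level, TIMM8B at 0.510, and both TIMM17 paralogs of the TIM23 channel were lower, at 0.748 (TIMM17A) and 0.658 (TIMM17B). HSPA9, the motor's ATPase, was 1.34-fold and GRPEL2, a nucleotide exchange factor for it, 1.37-fold higher. GRPEL1, the other exchange factor, was at 0.768 of its control level and did not pass (limma-trend adjusted p = 0.0583). HSPA9 also folds proteins but is counted here with the motor. The other matrix chaperones and the proteases, HSPD1, LONP1 and CLPP among them, held no gene that passed the limma-trend test in either direction. With limma-voom on recovered reads LONP1, CLPX and YME1L1 passed higher (limma-voom adjusted p = 0.0417, 0.00795 and 0.00779). CLPP and the scaffold gene PHB2 passed lower in that fit (limma-voom adjusted p = 0.0247 and 0.00119), and HSPD1 did not pass. When trends with transcript length and GC content were removed from each library, 9 of the 11 calls among the 44 genes were lost, HSPA9 and GRPEL2 among them, and TOMM40 and TIMM17A still passed. Fold values are ratios of mean FPKM over 2 libraries per group, and each test is given below.

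Of the 44 genes, 41 had at least 1 FPKM in at least 2 libraries and were tested. Of these, 2 were higher and 9 lower (adjusted p under 0.05 with limma-trend on log2(FPKM + 1), Benjamini-Hochberg over 16362 tested genes) and 30 did not pass. That is 26.8% of the tested members, where 13.9% of all tested genes were called. In the lower direction the share was 22% against 8.92% of all tested genes, and in the higher direction 4.88% against 5.00%, so the count of higher genes was close to the background. The median log2 fold change of the tested members was −0.13, beside −0.0075 over all tested genes. Both NT1_hp2 libraries lay above both control libraries for 11 of the 41 genes and below them for 20, with 10 overlapping. Among all tested genes these shares were 32.0% above and 34.8% below. With 2 libraries per group the calls needed all 4 libraries. Without any single library 0 of the 11 called members passed, in fits that called 0 genes of the whole table without either negative control replicate or without NT1_hp2 replicate 2, and 1 without NT1_hp2 replicate 3 (limma-trend), while 3315 to 5836 genes, 12 to 21 members among them, had an unadjusted p under 0.05. Over these 4 fits 0 of the 11 changed direction.

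The balance of directions differed between settings. As deposited, 818 of all tested genes were higher and 1460 lower. It was similar with upper-quartile factors (906 and 1444) and median-of-ratios factors (753 and 1338), but 1532 were higher and 1327 lower when libraries were scaled to their read totals. Limma-voom on recovered reads, which changes the model as well as the scaling, gave 3343 and 2444. The members went from 2 higher and 9 lower to 5 and 9 with library totals, and to 10 and 13 with limma-voom. All 11 called members stayed called in the same direction with library totals, upper-quartile factors and limma-voom, and 10 of 11 with median-of-ratios factors.

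**Figure D1:**
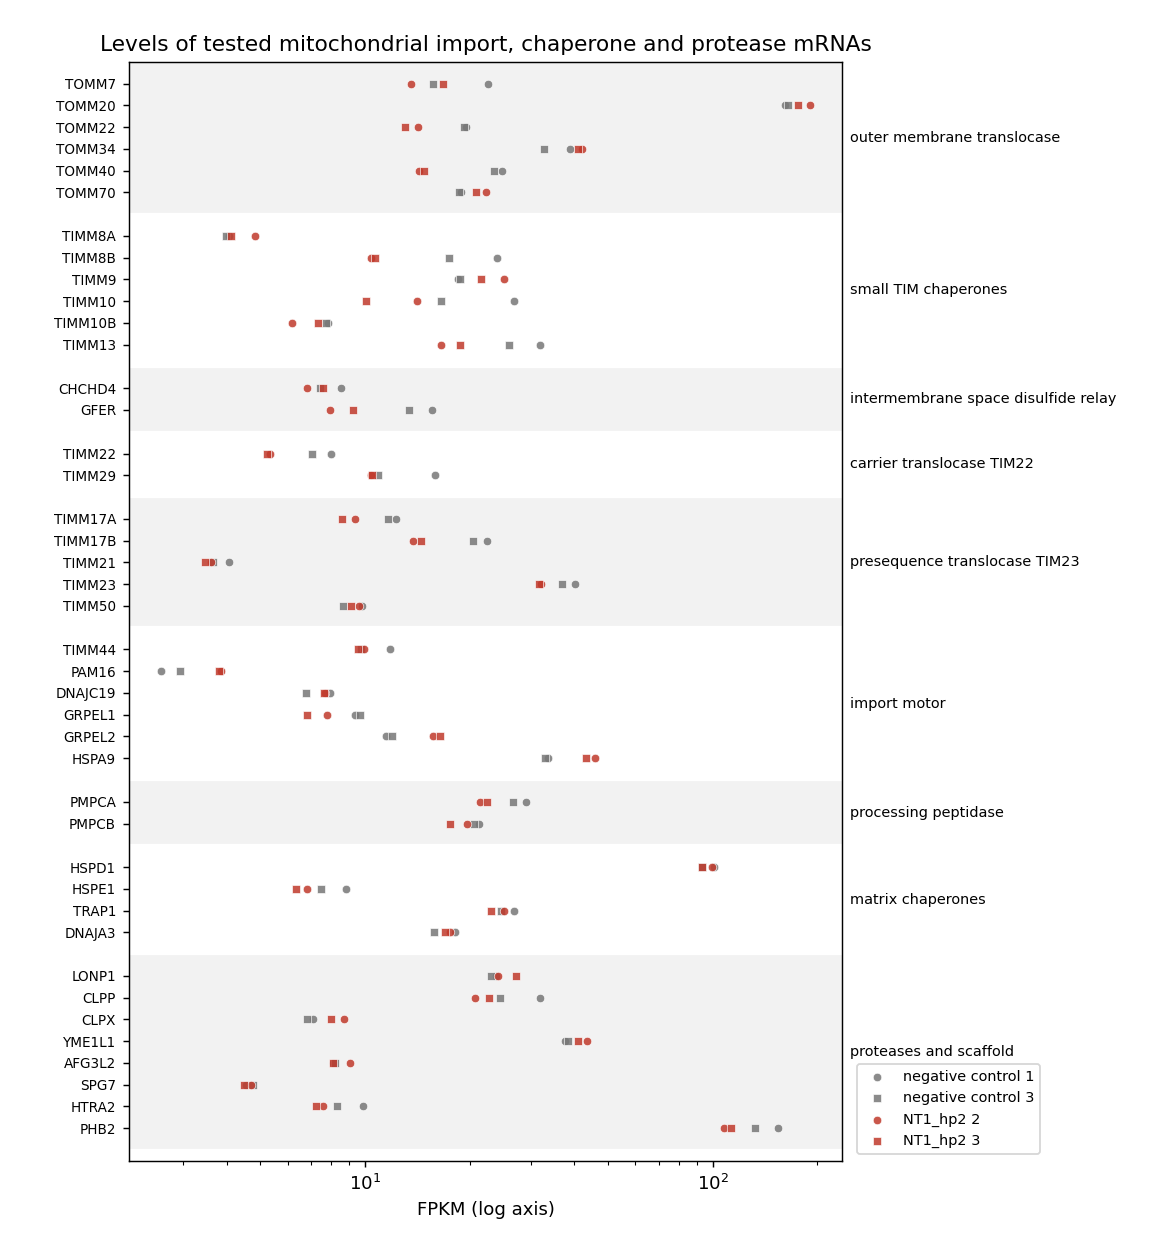
FPKM (log axis) of the 41 tested genes by role, with grey marks for the negative control and red for NT1_hp2, a circle and a square for the 2 libraries of each group. TOMM20, PHB2 and HSPD1 were the most abundant, and for TOMM40, TIMM8B and GFER the red marks lay well to the left of the grey ones.

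In the outer membrane translocase, the pore gene and 1 receptor gene fell while the other receptors did not pass with limma-trend. With limma-voom on recovered reads TOMM20, TOMM70 and TOMM34 were called higher (limma-voom adjusted p = 0.00265, 0.00512 and 0.00753). TOMM40 (ENSG00000130204, chromosome 19, 44890569 to 44903689, GRCh38), which encodes the channel itself, measured 24.7 and 23.5 FPKM in control cells and 14.3 and 14.8 with NT1_hp2. These levels rested on 1285, 1065, 728 and 759 reads, and the groups did not overlap. The log2 fold change was −0.69 (SE 0.064, 95% interval −0.86 to −0.52, limma-trend adjusted p = 0.0340). TOMM22 (chromosome 22, 38681948 to 38685421), the central receptor that also holds the complex together, measured 19.6 and 19.2 against 14.2 and 13.1 FPKM. Its log2 fold change was −0.48 (SE 0.069, limma-trend adjusted p = 0.0340), and both NT1_hp2 libraries lay below both controls. TOMM20, the presequence receptor and the most abundant mRNA of the 44, went the other way without passing. Its levels were 162 and 164 FPKM in control cells and 191 and 176 with NT1_hp2 (log2 fold change 0.17, limma-trend adjusted p = 0.188).

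TOMM70, the receptor for carrier precursors, was at 18.9 and 18.6 against 22.3 and 20.9 FPKM (log2 fold change 0.19), and TOMM34, a cytosolic co-chaperone of import, at 38.9 and 32.7 against 42.2 and 41.1 FPKM (0.22). In both genes the NT1_hp2 libraries were the higher ones, and neither passed with limma-trend. TOMM7, a small subunit that tunes the stability of the complex, overlapped between groups, at 22.6 and 15.7 against 13.5 and 16.8 FPKM (log2 fold change −0.30). TOMM5 and TOMM6, the other small subunits, were listed at levels too low to test. TOMM5 had 22, 16, 45 and 30 reads, or 0.419, 0.349, 0.874 and 0.580 FPKM. It shares 520 exon bases (14.3%) with AL138752.2 and 340 (9.33%) with AL513165.2, both on the same strand. The main transcript of TOMM5 has 751 bases, and how many of them are shared was not tested, so its level is uncertain. TOMM6 was listed at 0 in all 4 libraries, and 100% of its exon bases also belong to the annotated gene AL365205.1 on the same strand. Over the 6 tested genes of this group 0 were higher and 2 lower, beside 5.00% higher and 8.92% lower of all tested genes. Their median log2 fold change was −0.067.

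**Figure D2:**
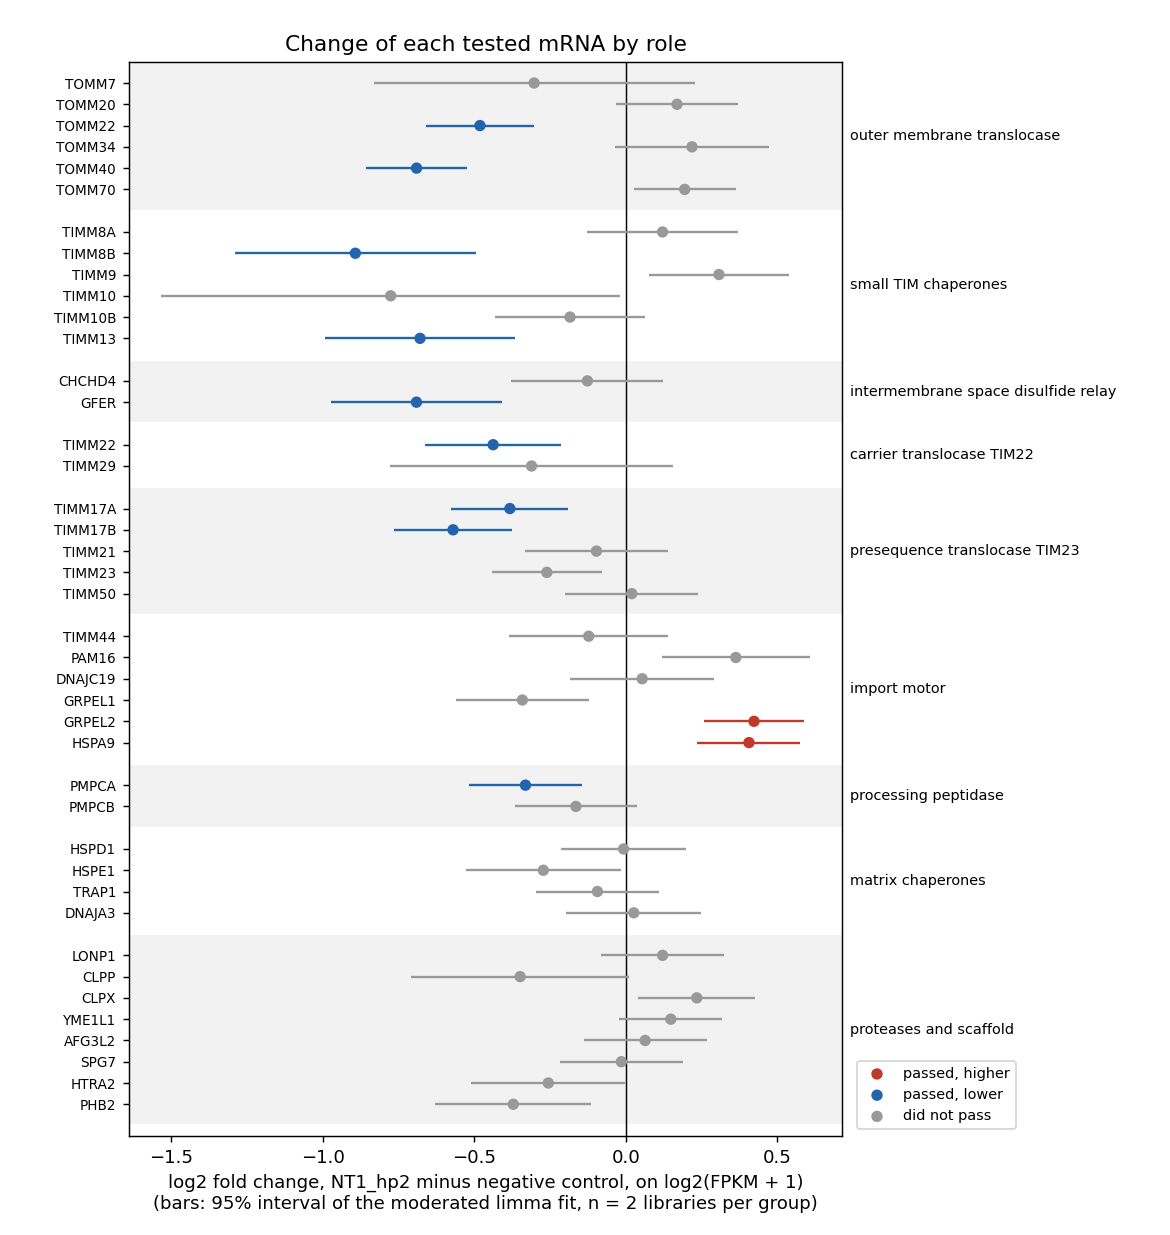
Log2 fold change of each tested gene with the 95% interval of the limma-trend fit (n = 2 libraries per group), blue for genes that passed lower, red for genes that passed higher and grey for the rest. Blue points fall in 6 of the 9 role groups, both red points lie in the import motor, and the matrix chaperones and the proteases hold grey points alone.

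The small TIM chaperones work as hexamers, TIMM9 with TIMM10 and TIMM8A or its paralog TIMM8B with TIMM13. Of these, TIMM8B and TIMM13 fell and the rest did not pass. TIMM8B (chromosome 11, 112084800 to 112086798) had the largest change of the 41 genes, from 23.9 and 17.4 FPKM to 10.4 and 10.7. It had 402, 255, 171 and 177 reads. The log2 fold change was −0.89 (SE 0.15, 95% interval −1.29 to −0.50, limma-trend adjusted p = 0.0372). The negative control libraries differed from each other, with replicate 1 the higher, yet both stood above NT1_hp2. TIMM13 (chromosome 19, 2425624 to 2427894), a hexamer partner of the TIMM8 proteins, went from 31.9 and 26.0 to 16.5 and 18.8 FPKM, which was −0.68 on the log2 scale (SE 0.12, limma-trend adjusted p = 0.0385). TIMM8A, the paralog of TIMM8B linked to deafness-dystonia syndrome, was at 4.06 and 3.98 against 4.82 and 4.12 FPKM (log2 fold change 0.12), and did not pass. The difference between the 2 paralogs was not tested.

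TIMM10 had the widest interval of the 41 genes. It measured 26.9 and 16.6 FPKM in the controls and 14.1 and 10.1 with NT1_hp2, without overlap, and its log2 fold change of −0.78 did not pass (SE 0.28, limma-trend adjusted p = 0.129). Its partner TIMM9 was at 18.5 and 18.8 against 25.2 and 21.6 FPKM (log2 fold change 0.31, adjusted p = 0.0780), again without overlap but in the opposite direction. TIMM10B, which docks the hexamers onto TIM22, was at 7.83 and 7.75 against 6.17 and 7.34 FPKM (log2 fold change −0.18). Over the 6 genes 0 were higher and 2 lower, with a median of −0.43, where 5.00% of all tested genes were higher and 8.92% lower. CHCHD4 and GFER form the disulfide relay that oxidises and so traps the small TIM proteins in the intermembrane space. GFER, the oxidase (chromosome 16, 1984207 to 1987749), fell from 15.6 and 13.4 to 7.96 and 9.23 FPKM. On the log2 scale that was −0.69 (SE 0.11, limma-trend adjusted p = 0.0353), with the groups well apart. CHCHD4, the import receptor of the relay, overlapped between groups at 8.54 and 7.41 against 6.83 and 7.59 FPKM (−0.13).

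Exons of some of these short genes overlap other genes, and the library kit does not mark strand. TIMM8B shares 30.1% of its exon bases with NKAPD1 on the opposite strand, which was at 9.08, 8.82, 8.70 and 7.74 FPKM. For TIMM13 the overlap is 13.0% with LMNB2 on the same strand (58.8 to 68.1 FPKM in control and 41.7 to 49.1 in NT1_hp2 libraries) and 15.9% with TMPRSS9 on the other, and GFER shares 25.9% with AC005606.2, listed at 0 throughout. TIMM9 shares 14.9% of its exon bases with KIAA0586 and 11.5% with TOMM20L, both on the opposite strand. The labels do not say how reads in shared exons were assigned.

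Both inner membrane translocases had lower members and no higher one. TIMM22 (chromosome 17, 997117 to 1003671), the channel of the carrier translocase, went from 8.0 and 7.03 to 5.32 and 5.23 FPKM. The log2 fold change was −0.44 (SE 0.087, limma-trend adjusted p = 0.0422), and the NT1_hp2 libraries were within 0.1 FPKM of each other and below both controls. TIMM29, a structural subunit of the same complex, was at 16.0 and 10.9 against 10.4 and 10.5 FPKM. Its log2 fold change of −0.31 (adjusted p = 0.271) moved between −0.57 and −0.056 when single libraries were left out, and negative control replicate 1 stood above the other 3.

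In the TIM23 complex, TIMM17A and TIMM17B are alternative paralogs of the same channel subunit, and the mRNAs of both fell. TIMM17A (chromosome 1, 201955491 to 201970661) went from 12.3 and 11.7 to 9.35 and 8.58 FPKM (log2 fold change −0.38, SE 0.075, limma-trend adjusted p = 0.0416). TIMM17B (chromosome X, 48893447 to 48898143) went from 22.5 and 20.4 to 13.7 and 14.5 FPKM (−0.57, SE 0.075, limma-trend adjusted p = 0.0340). No library of one group reached the range of the other in either gene. TIMM23, the core channel protein, measured 40.1 and 36.8 against 32.0 and 31.8 FPKM. It was below control in both libraries but did not pass (−0.26, 95% interval −0.44 to −0.079, limma-trend adjusted p = 0.0676). Its near-identical copy TIMM23B was at 4.32 and 5.96 against 4.98 and 4.08 FPKM (log2 fold change −0.14), and the division of reads between the copies is uncertain. TIMM21, which links TIM23 to the outer membrane and the respiratory chain, was at 4.07 and 3.65 against 3.62 and 3.46 FPKM (−0.097). TIMM50, the presequence receptor of the complex, overlapped between groups at 9.84 and 8.65 against 9.60 and 9.13 FPKM (0.019), and neither passed.

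The paralogs show how far 2 genes for nearly the same protein part can differ in base composition, which is taken up again below. The first 120 coding bases of each from the ATG, of GENCODE 29 principal transcripts, are given here because they align without a gap, with G and C in capitals.
TIMM17A: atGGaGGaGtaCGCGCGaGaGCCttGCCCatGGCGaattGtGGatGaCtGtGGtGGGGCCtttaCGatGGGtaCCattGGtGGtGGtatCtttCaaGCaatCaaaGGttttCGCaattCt
TIMM17B: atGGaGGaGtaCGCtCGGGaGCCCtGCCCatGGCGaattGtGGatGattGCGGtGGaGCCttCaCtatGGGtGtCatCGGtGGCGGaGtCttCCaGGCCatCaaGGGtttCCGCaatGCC
Of the 120 aligned positions 99 (82.5%) were identical and 21 differed. At 15 of these 21, TIMM17A had A or T and TIMM17B had G or C, and at 5 the reverse held. Over the whole coding sequence (513 and 516 bases) G and C made up 49.5% in TIMM17A and 62.4% in TIMM17B, and over the transcript 40.6% and 62%.

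Both members that passed higher belong to the import motor. HSPA9 (chromosome 5, 138553756 to 138575724) encodes mortalin, the matrix HSP70 that drives translocation and also folds proteins. It measured 33.7 and 33.0 FPKM in the controls and 45.9 and 43.2 with NT1_hp2, on 4002, 3424, 5348 and 5059 reads. The log2 fold change was 0.41 (SE 0.066, 95% interval 0.24 to 0.58, limma-trend adjusted p = 0.0353). GRPEL2 (chromosome 5, 149345430 to 149354583), a nucleotide exchange factor for HSPA9, went from 11.5 and 12 to 15.7 and 16.4 FPKM (0.42, SE 0.064, limma-trend adjusted p = 0.0340). The gaps between groups were several times the gaps within them in both genes. GRPEL1, the other exchange factor for the same HSP70, lay on the other side of its control, at 9.36 and 9.68 against 7.80 and 6.83 FPKM. That difference did not pass (−0.34, SE 0.085, limma-trend adjusted p = 0.0583), and the difference between the GRPEL paralogs was not tested.

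PAM16, a J-like regulator of the motor, was at 2.59 and 2.94 against 3.86 and 3.81 FPKM (log2 fold change 0.36, limma-trend adjusted p = 0.0636), without overlap and on 88 to 130 reads per library. It shares 522 exon bases (21.9%) with CORO7-PAM16 on the same strand, listed at 0 throughout. The principal transcript of PAM16 has 587 bases, and how many of them are shared was not tested, so its level and change are uncertain. TIMM44, which tethers HSPA9 to the channel (−0.12), and DNAJC19, a J protein of the motor (0.053), overlapped between groups. DNAJC15, the paralog of DNAJC19, was not tested because it had 9, 16, 14 and 7 reads (0.0777, 0.158, 0.123 and 0.0613 FPKM). DNAJC19 was at 7.96 and 6.79 against 7.70 and 7.64 FPKM, so it was the more abundant of these J proteins in all 4 libraries. Over the 6 tested motor genes 2 were higher and 0 lower, with a median of 0.21, where 5.00% of all tested genes were higher and 8.92% lower.

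PMPCA, the substrate-binding subunit of the matrix processing peptidase (chromosome 9, 136410570 to 136423761), fell from 29.1 and 26.7 to 21.4 and 22.4 FPKM. Its log2 fold change was −0.33 (SE 0.072), and with a limma-trend adjusted p of 0.0477 it lay closest to the threshold of the 11 that passed. It missed the threshold with median-of-ratios factors and without robust variance shrinkage. PMPCB, the catalytic subunit, was at 21.3 and 20.6 against 19.7 and 17.6 FPKM (−0.17, limma-trend adjusted p = 0.196), lower in both NT1_hp2 libraries without passing. It shares 13.0% of its exon bases with DNAJC2 on the opposite strand.

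Matrix chaperones other than HSPA9, among the known targets of the mitochondrial unfolded protein response, counted 0 higher and 0 lower of 4. Their median log2 fold change was −0.051. HSPD1, which encodes the HSP60 chaperonin, measured 101 and 93.5 FPKM in control cells and 99.9 and 93.4 with NT1_hp2. Its log2 fold change was −0.0078, and the 95% interval of −0.21 to 0.20 bounds the change on that scale. HSPE1, the lid of the HSP60 chamber, was at 8.85 and 7.49 against 6.80 and 6.34 FPKM (−0.27, limma-trend adjusted p = 0.119). HSPD1 and HSPE1 lie head to head on chromosome 2 and share 281 exon bases on opposite strands. HSPE1 also shares 192 exon bases with HSPE1-MOB4 on the same strand, listed at 0 throughout. Its 26 named pseudogenes together held 18 to 36 reads beside its own 178 to 252, so the level of HSPE1 is uncertain. TRAP1, the HSP90 of the matrix, was at 26.9 and 24.6 against 25.1 and 23.1 FPKM (−0.094), and the J protein DNAJA3 at 18.2 and 15.8 against 17.6 and 17 FPKM (0.026), both overlapping between groups. TRAP1 shares 29.3% of its exon bases with DNASE1 on the opposite strand. None of the 4 was called with limma-trend, where HSPE1 alone had groups that did not overlap.

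Among the proteases and their scaffold 0 of 8 passed in either direction with limma-trend, and the median log2 fold change was 0.024. Limma-voom called LONP1, CLPX and YME1L1 higher and CLPP and PHB2 lower. LONP1, the main soluble protease of the matrix, measured 23.9 and 23.0 against 24.2 and 27.1 FPKM (log2 fold change 0.12, 95% interval −0.083 to 0.32). CLPP, the proteolytic chamber of the other soluble matrix protease, was at 31.9 and 24.4 against 20.8 and 22.7 FPKM (−0.35, limma-trend adjusted p = 0.142). CLPX, its unfoldase, was at 7.07 and 6.82 against 8.69 and 8.01 FPKM (0.23, limma-trend adjusted p = 0.0934). Neither of these parts of the enzyme passed with limma-trend. YME1L1, the inner membrane protease that faces the intermembrane space, was at 37.7 and 38.5 against 43.6 and 41.1 FPKM (0.15). AFG3L2 and SPG7, subunits of the protease that faces the matrix, overlapped between groups at log2 fold changes of 0.063 and −0.015. HTRA2, a serine protease of the intermembrane space, was at 9.88 and 8.30 against 7.60 and 7.25 FPKM (−0.26), and 20.8% and 16.1% of its exon bases are shared with LOXL3 and AUP1. PHB2, a prohibitin that forms the ring scaffold around these proteases, had the largest difference of the group, from 154 and 132 to 108 and 113 FPKM. It missed the threshold (−0.37, SE 0.10, limma-trend adjusted p = 0.0667), and its partner PHB was at 20.9 and 16.5 against 18.6 and 17.1 FPKM (−0.060).

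Set side by side, the 21 tested genes of the membrane translocases and the intermembrane space, cytosolic TOMM34 included, counted 0 higher and 8 lower. Their median log2 fold change was −0.30. The 20 tested genes of the matrix side and the proteases, YME1L1 and HTRA2 included, counted 2 higher and 1 lower, with a median of −0.012. Among all tested genes 5.00% were higher and 8.92% lower. The difference between these medians was not tested. After the removal of length and GC trends, described next, the medians were −0.24 and 0.0021. In that fit 2 genes of the first set and 0 of the other were called, where 1.60% of all genes were.

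Change followed the base composition of the transcript across the whole table. Among the 16350 tested genes with annotated GC content and length, Spearman's rho between log2 fold change and GC content was −0.564, and the median log2 fold change ran from 0.27 in genes under 38% GC to −0.34 in genes over 62% GC. Across the 41 tested members rho was −0.446 with GC content and 0.479 with exon length. Over all tested genes rho with exon length was 0.094. These are descriptions across genes, which share libraries and are no replicates. The 9 members that passed lower had a median GC content of 53.4% and the 2 that passed higher 42.6%, beside 48.5% for all tested genes. TIMM13 at 63.4%, GFER at 63.1%, TOMM40 at 62% and TIMM17B at 59.0% were the lower genes richest in GC, while TIMM17A at 41.8%, TIMM8B at 46.3% and TOMM22 at 48.3% lay below the median of all genes.

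With smooth trends of GC content and length removed from each library, 1.60% of all genes were called, and 2 of the 41 members, TOMM40 and TIMM17A. That is 4.88% of the tested members. TOMM40 went from −0.69 to −0.37 (limma-trend adjusted p = 0.0498) and TIMM17A from −0.38 to −0.48 (0.0446). TIMM8B moved from −0.89 to −0.92 and TOMM22 from −0.48 to −0.42, with limma-trend adjusted p-values of 0.0592 and 0.0516. HSPA9 and GRPEL2 were at 0.29 and 0.27 (0.0591 and 0.0782). By contrast GFER, TIMM13 and TIMM17B went from −0.69, −0.68 and −0.57 to −0.33, −0.31 and −0.27. LONP1, at 62.3% GC, moved from 0.12 to 0.42 (0.0516), PAM16 from 0.36 to 0.67 (0.0630) and TOMM34 from 0.22 to 0.40 (0.0561), none of which passed. The values of PAM16 are uncertain because of the exon overlap given above. All 11 called members kept their sign, and the part of GC content in these differences was not tested further.

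**Figure D3:**
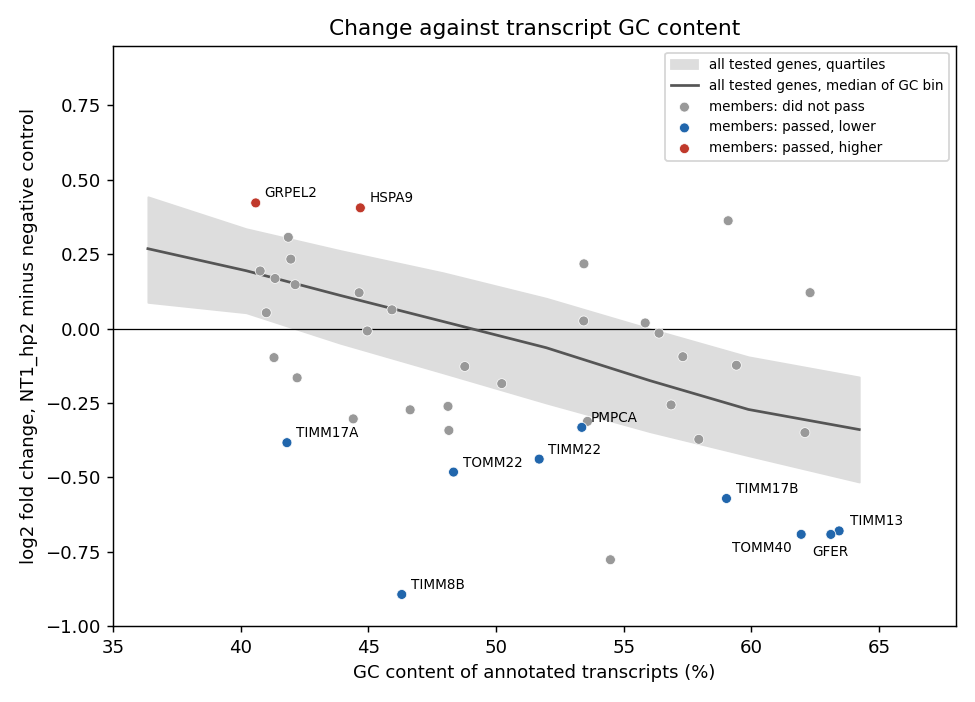
Log2 fold change of the 41 tested members (points) against the GC content of their annotated transcripts, over the median and quartiles of all tested genes in 8 GC bins (line and band). TIMM8B, TIMM17A and TOMM22 lie far below the line at their GC content, and GRPEL2 and HSPA9 lie above it.

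**Figure D4:**
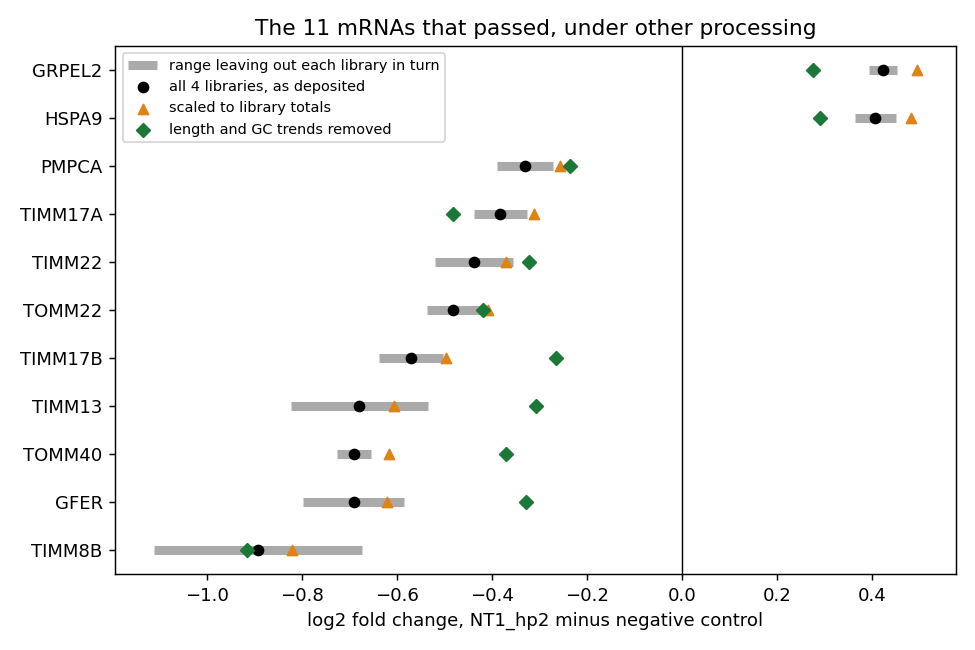
Log2 fold changes of the 11 genes that passed, as deposited (black), with library totals (orange), with length and GC trends removed (green), and over the 4 fits that leave out a library (grey bar). Every mark keeps the side of 0 on which it began, and the green marks of TIMM13, GFER, TOMM40 and TIMM17B lie much nearer to 0 than the black ones.

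Start-site sequence was read for 39 of the 44 genes from RefSeq promoters (GRCh38.p14, 250 bases before to 50 after the start), and 5 genes, TIMM8B, TOMM5, YME1L1, CLPP and GRPEL1, had no entry. Motifs were searched as exact letters on both strands. The ETS letters CCGGAAG stood in 17 of 39 (43.6%), against 16.5% of 15843 coding genes, and among these 17 were 1 gene called higher, GRPEL2, and 2 called lower, TIMM13 and TOMM22. The core of the NRF1 site, CGCATGCG, stood in 5 (12.8% against 3.28%), namely CHCHD4, DNAJA3, LONP1, TIMM9 and TOMM7, none of which passed. The C/EBP-ATF composite letters TGATGNAA, bound by CHOP and ATF4 dimers, stood in PMPCB and TIMM22 (5.13% against 3.60%). The cyclic AMP response element TGACGTCA stood in TRAP1 (2.56% against 3.0%), and the heat shock pair GAANNTTC in HSPD1 (2.56% against 7.38%). A match describes letters and not binding. The promoters of a gene that rose, one that fell and the chaperonin gene with the heat shock letters are printed with matches in capitals, GRPEL2 from chr5:149345249-149345548 (plus strand), TOMM22 from chr22:38681707-38682006 (plus strand) and HSPD1 from chr2:197499791-197500090 (minus strand).
GRPEL2: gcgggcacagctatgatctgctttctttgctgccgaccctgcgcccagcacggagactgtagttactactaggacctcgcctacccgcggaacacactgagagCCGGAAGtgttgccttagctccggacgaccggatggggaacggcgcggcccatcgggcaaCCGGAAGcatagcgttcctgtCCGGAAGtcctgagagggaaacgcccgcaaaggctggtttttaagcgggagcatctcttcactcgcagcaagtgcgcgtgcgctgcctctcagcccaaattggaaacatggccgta
TOMM22: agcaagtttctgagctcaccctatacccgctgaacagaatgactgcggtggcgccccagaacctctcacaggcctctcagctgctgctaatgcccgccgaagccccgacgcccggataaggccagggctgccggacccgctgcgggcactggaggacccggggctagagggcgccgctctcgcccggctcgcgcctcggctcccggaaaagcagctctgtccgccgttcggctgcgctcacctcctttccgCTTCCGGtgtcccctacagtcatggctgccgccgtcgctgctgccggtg
HSPD1: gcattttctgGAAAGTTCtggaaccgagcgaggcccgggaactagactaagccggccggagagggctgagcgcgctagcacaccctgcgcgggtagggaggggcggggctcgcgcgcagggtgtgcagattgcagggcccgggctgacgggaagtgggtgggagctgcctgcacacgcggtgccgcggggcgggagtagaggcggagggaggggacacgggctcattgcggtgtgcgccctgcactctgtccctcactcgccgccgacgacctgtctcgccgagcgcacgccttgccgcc
GRPEL2 held the ETS letters at 3 places before its start, and TOMM22 held them once, on the opposite strand, at the start itself.

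Other genes of the pathway were read from separate lists. Of 19 tested genes of import, membrane insertion and cristae organisation outside the 44, 0 were higher and 3 lower, where 5.00% of all tested genes were higher and 8.92% lower. They were MTX1, an outer membrane import and sorting protein (3.90 and 3.84 against 2.16 and 2.06 FPKM), ROMO1, a small inner membrane protein (79.3 and 73.8 against 52.9 and 58.8 FPKM), and C19orf70, a subunit of the MICOS complex (15.5 and 13.0 against 7.98 and 9.80 FPKM). After removal of length and GC trends 0 of the 19 were called, with MTX1 at −0.35, ROMO1 at −0.21 and C19orf70 at −0.29. Of 15 other peptidases and quality control genes, 0 were higher and 1 lower, the matrix protein C1QBP at 65.1 and 61.9 against 48.3 and 47.3 FPKM, and C1QBP was also called after that removal. OMA1, the stress-activated protease that cuts DELE1, was at 3.27 and 2.72 against 2.84 and 2.42 FPKM (log2 fold change −0.14).

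Of 9 genes listed for mitochondrial stress signalling, 2 were higher and 2 lower, where 5.00% of all tested genes were higher and 8.92% lower. Whether any stress behind these changes was mitochondrial was not tested. DDIT3, which encodes CHOP, measured 36.6 and 34.5 against 81.2 and 81.8 FPKM, and TRIB3, a pseudokinase induced by it, 20.3 and 16.1 against 37.5 and 39.3 FPKM. Their log2 fold changes were 1.18 and 1.04 (limma-trend adjusted p = 0.0340 for each), and 27.2% of the exon bases of DDIT3 are shared with MARS on the opposite strand. DELE1, which relays mitochondrial stress to the kinase of eIF2alpha, was lower at 12.2 and 12 against 9.54 and 9.68 FPKM (log2 fold change −0.30, limma-trend adjusted p = 0.0441), as was the nuclear receptor ESRRA (−0.49). ATF5, a transcription factor known to act on HSPD1 and LONP1 under mitochondrial stress, was at 4.49 and 3.75 against 5.35 and 4.94 FPKM (0.27, limma-trend adjusted p = 0.140). With length and GC trends removed, DDIT3 and TRIB3 were still called (1.25 and 1.37), while DELE1 at −0.21 and ESRRA at −0.12 were not, and ATF5 moved to 0.60 without passing (limma-trend adjusted p = 0.0542).

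Cytosolic chaperones, only some of which hand precursors to the TOM receptors, counted 0 higher and 4 lower of 19. Among all tested genes 5.00% were higher and 8.92% lower. HSPA8, the constitutive HSP70, went from 77.0 and 62.3 to 32.5 and 33.8 FPKM (log2 fold change −1.04, limma-trend adjusted p = 0.0340), while HSPA9 of the matrix rose. HSPA1B (−0.96), DNAJA1 (−0.46) and HSPB1 (−0.77) were the other lower genes. After removal of length and GC trends 2 of the 19, HSPA8 and HSPA1B, were called, where 1.60% of all genes were. Mitochondrial ribosomal protein genes, whose products are all imported, counted 1 higher and 17 lower of 76 with a median of −0.25, beside 5.00% higher and 8.92% lower of all tested genes. After removal of length and GC trends 4 of the 76 were called, beside 1.60% of all genes, and the median was −0.18. MRPL23 (0.386 of control), MRPL28 (0.442), MRPL24 (0.448) and MRPS12 (0.561) had the smallest p-values among them.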

How the data were processed

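RNA libraries of HEK293A cells (2 negative control, 2 NT1_hp2) were grouped by their titles. The authors deposited 1 table per library. Its unit was taken to be FPKM, from the values, since per the file headers only gene and library are named. The submitters' processing notes name GRCh38.p12. No aligner, counter or scaling is given in the sources used here. Per the labels' protocols, 1 µg of RNA entered a NEBNext Ultra kit, which does not mark strand.

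Deposited FPKM times GENCODE 29 exon length gave whole reads for 100% of values under 1000 reads (within 0.01 of a read). The recovered totals leave out a row named EGFP. No file pairs were identical (0), and recovered reads differed beyond sampling noise within groups (chi-square per degree of freedom 6.22 and 2.83) and more between them (15.1 to 32.3), so no pair was taken for the same library deposited again. Whether libraries came from separate cultures is not shown by this.

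The design allowed for counts or normalized values. FPKM called for limma 3.58.1 (R 4.3.3, trend, robust) on log2(FPKM + 1), which understates changes of low genes, for genes that reached 1 FPKM in 2 or more libraries, with Benjamini-Hochberg adjustment over all tested genes and a threshold of 0.05. The script was tested on simulated data. Smooth length and GC trends per library were fitted with mgcv 1.9.3.

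Members and lists were chosen with earlier results of these data known. Genes named with values are the members that passed, the most abundant and most changed member of each role, fixed chaperones, proteases, receptors and paralogs, and up to 4 genes with the smallest p in each other list. Further members were added to account for all. A further marker list is not reported here. Alternatives were another pseudocount, other filters, scalings and shrinkage, limma-voom on recovered reads, coding genes alone, trend removal and omission of each library. Removal of the length trend alone was added after seeing the data.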

Additional observations from a re-analysis of the deposited data

How the results depend on the processing

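The 11 called members kept their direction in each alternative run, and every call was lost only without the filter or without a library. No paired analysis was possible because the groups share only replicate number 3. Leaving out each library in turn gave 0 higher and 0 to 1 lower of all genes and 0 called in the members and every role. Medians then ran from −0.19 to −0.044 for the members, −0.20 to 0.052 for the outer membrane, −0.51 to −0.31 for the small TIM chaperones, 0.17 to 0.23 for the motor and −0.025 to 0.042 for the proteases. Without the filter 0 genes passed (limma-trend), while 6778 genes, 18 members among them, had an unadjusted p under 0.05. The cause of the changes below was not tested.

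With at least 1 FPKM in all 4 libraries, which tests fewer genes, 1374 genes were higher and 2273 lower, with 4 members higher, 1 of them a small TIM chaperone, and 1 motor gene and 1 protease gene newly lower. Among coding genes alone it was 1778 and 2938, and 5 and 15 members, with 1 small TIM chaperone and 1 protease gene higher, and 1 motor, 1 matrix chaperone and 3 protease genes lower. Library totals gave 1532 genes and 5 members higher, adding 1 outer membrane, 1 small TIM and 1 protease gene, with medians of −0.059 (members), 0.27 (motor), −0.19 (TIM23), −0.17 (peptidase) and 0.090 (proteases). Limma-voom gave 3343 higher and 2444 lower, with 10 members higher. Newly called higher were 3 outer membrane, 1 small TIM and 3 protease genes and the motor gene PAM16. Newly called lower were the small TIM gene TIMM10, 1 motor gene and 2 protease genes. Medians with limma-voom were 0.31 (motor), −0.19 (TIM23), −0.18 (peptidase) and 0.11 (proteases). Median-of-ratios factors, or no robust shrinkage, left 0 peptidase genes lower.

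After removal of length and GC trends 112 genes were higher and 149 lower, with 0 members higher and 2 lower, 1 in the outer membrane and 1 in TIM23, and 0 in the small TIM chaperones, relay, TIM22, motor and peptidase. Medians were −0.062 (members), −0.20 (small TIM), −0.20 (relay) and 0.0021 (proteases). Removing length alone left 5 members higher, with 1 outer membrane and 1 small TIM gene among them, and 1 TIM23 gene lower. Its medians were −0.29 (small TIM), −0.26 (relay), −0.17 (TIM23), 0.25 (motor) and −0.033 (proteases).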
